A study of Mus musculus with 4 samples.

Results

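Transcripts of 7 genes were followed in leukocytes of mouse melanoma. Klrg1, Cx3cr1, Zeb2, S1pr5 and Itgam are established genes of the last steps of natural killer (NK) cell maturation, and Aff3 and Gpx8 were read with them. They are 7 of the 32285 genes measured and were found by symbol, each on 1 row of every count matrix. The members were selected on the ratios of their transcript levels between libraries in NK cells, mainly of tumours given an antibody to CD40 against control tumours, with those ratios known. The values in NK cells below are therefore a description, with no test, and support nothing by themselves. Aff3 and Gpx8 are not established maturation genes, and Aff3 went the opposite way from the others.

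The leukocytes came from tumours of B16-F10, a transplantable mouse melanoma line that all mice carried. The groups were a control, the CD40 antibody injected into the tumour, the PD1 antibody by vein, and the combination of both. Dilution buffer and IgG stood in for the antibodies, and mice were treated on days 8 and 11 after inoculation and tumours collected on day 14. Strain and age were not given in the sources used here. Each group was 1 library of live CD45+ cells pooled from 6 mice. There was thus no spread between replicates and no difference was tested. Ranges in brackets are 95% intervals for counting error only.

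The 4 libraries held 8132 to 10158 barcodes and 117735875 to 164755549 unique molecular identifiers (UMIs, 1 per captured transcript). Between 94 and 144 barcodes were shared by any 2 libraries, at most 1.73% of a library. NK-gated cells had UMIs of Ncr1 and Klrb1c, the genes of NKp46 and NK1.1, with at most 1 UMI in sum over T cell genes and at most 1 over 7 genes of other lineages. CD8 T-gated cells had at least 2 UMIs in sum of Cd8a and Cd8b1, at least 1 of the Cd3 genes and none of Cd4, Foxp3 or Ncr1, with the same limit on other lineages. No member took part in a gate. Values are listed below in the order control, CD40, PD1, combination wherever 4 are given. The NK gate held 438, 377, 598 and 477 cells, and the CD8 T gate 630, 1740, 978 and 2897. Levels are in CPM, the UMIs of a gene as a share of all UMIs of the gated cells. A gene is past 2-fold when its log2 ratio between libraries is at least 1 in size. Fewer cells with a gene and less RNA per cell are told apart only where shares of cells are given.

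NK cells are innate lymphocytes that kill stressed and transformed cells without prior priming. In the mouse they mature from cells with the receptor CD27 to cells that lose it, gain the integrin CD11b, encoded by Itgam, and then gain KLRG1. T-bet and ZEB2 are transcription factors that drive the last steps, and S1PR5 and CX3CR1 are receptors that mature cells use to leave the marrow and to move through vessels and tissue. CD8 T cells use several of these genes in their own terminal effector state.

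Among the receptors, Klrg1 (chromosome 6, 122270596 to 122282882, minus strand, all positions on GRCm38 in GENCODE vM21) encodes an inhibitory receptor for cadherins. In NK-gated cells it was at 56.2 CPM (48.0 to 65.5) in the control and 569.5 CPM (548 to 591) with the CD40 antibody. It was at 114 CPM (104 to 124) with the PD1 antibody and 557 CPM (538 to 576) with both. Both libraries with the CD40 antibody were far above those without, and nearly level with each other. The log2 ratio was 3.34 (3.11 to 3.58) for CD40 over control and 2.29 (2.16 to 2.43) for combination over PD1, comparisons that share no library.

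Cx3cr1 (chromosome 9, 119901616 to 120069879, minus strand), the receptor for the membrane-bound chemokine fractalkine, was at 7.16 CPM (4.43 to 10.9), 115 CPM (106 to 126), 23.6 CPM (19.2 to 28.7) and 69.8 CPM (63.3 to 76.7). All 4 intervals lay apart, with CD40 highest and control lowest. Its log2 ratio was 4.01 (3.39 to 4.72) for CD40 over control and 1.56 (1.25 to 1.89) for combination over PD1.

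S1pr5 (chromosome 9, 21242912 to 21248443, minus strand), the sphingosine-1-phosphate receptor of mature NK cells, was at 64.4 CPM (55.6 to 74.3), 149.8 CPM (139 to 161), 71.3 CPM (63.5 to 79.8) and 102 CPM (94.2 to 110.5). The control and PD1 intervals overlapped, and the combination lay between them and CD40. The log2 ratios were 1.22 (0.98 to 1.46) and 0.52 (0.32 to 0.72) for the same pairs, and the first was 0.84 with equal weight per cell, no longer past 2-fold.

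Itgam (chromosome 7, 128062640 to 128118491, plus strand) encodes the integrin alpha chain CD11b. It was at 69.5 CPM (60.3 to 79.7), 145 CPM (135 to 157), 99.2 CPM (89.9 to 109) and 112 CPM (104 to 121). CD40 stood highest and control lowest, while the PD1 and combination intervals overlapped. The CD40 over control ratio was 1.07 (0.84 to 1.30) and the combination over PD1 ratio 0.17 (-0.004 to 0.35), both log2. The first was just past 2-fold, and was 0.96 with equal weight per cell and 0.97 with mitochondrial and ribosomal genes left out of the total.

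Zeb2 (chromosome 2, 44983632 to 45117395, minus strand), a transcription factor needed for full NK maturation, had the smallest fold range over libraries of the 7. It was at 156 CPM (142 to 171), 248 CPM (234 to 262), 145 CPM (134 to 157) and 161 CPM (151 to 171). Only the CD40 library stood apart from the rest. The log2 ratios were 0.67 (0.51 to 0.83) and 0.14 (-0.002 to 0.29), neither past 2-fold. The antisense gene Zeb2os overlaps Zeb2 and had at most 33 UMIs in these cells.

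Aff3 (chromosome 1, 38177326 to 38664955, minus strand), which encodes a nuclear protein of the AF4 family, went the other way. It was at 153 CPM (139.5 to 168) in control, 23.9 CPM (19.8 to 28.7) in CD40, 107 CPM (97.3 to 117) in PD1 and 23.7 CPM (20.0 to 28.0) in combination cells. Both libraries with the CD40 antibody were level with each other and far below those without. The log2 ratio was -2.68 (-2.99 to -2.38) for CD40 over control and -2.17 (-2.45 to -1.90) for combination over PD1.

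Gpx8 (chromosome 13, 113042753 to 113046410, minus strand), a glutathione peroxidase family member of the endoplasmic reticulum, had 10 UMIs in control NK-gated cells, 3.41 CPM (1.63 to 6.27). It had 482 UMIs with the CD40 antibody, 100.3 CPM (91.5 to 109.7), and 39 with the PD1 antibody, 9.12 CPM (6.49 to 12.5). The combination had 470, 77.5 CPM (70.7 to 84.8). Its log2 ratio was 4.88 (3.99 to 5.95) for CD40 over control and 3.09 (2.61 to 3.60) for combination over PD1. Many cells carried it: 160 CD40 and 167 combination cells had at least 1 UMI, and the 10 cells richest in it held 21.8% and 24.7% of its UMIs.

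**Figure D1:**
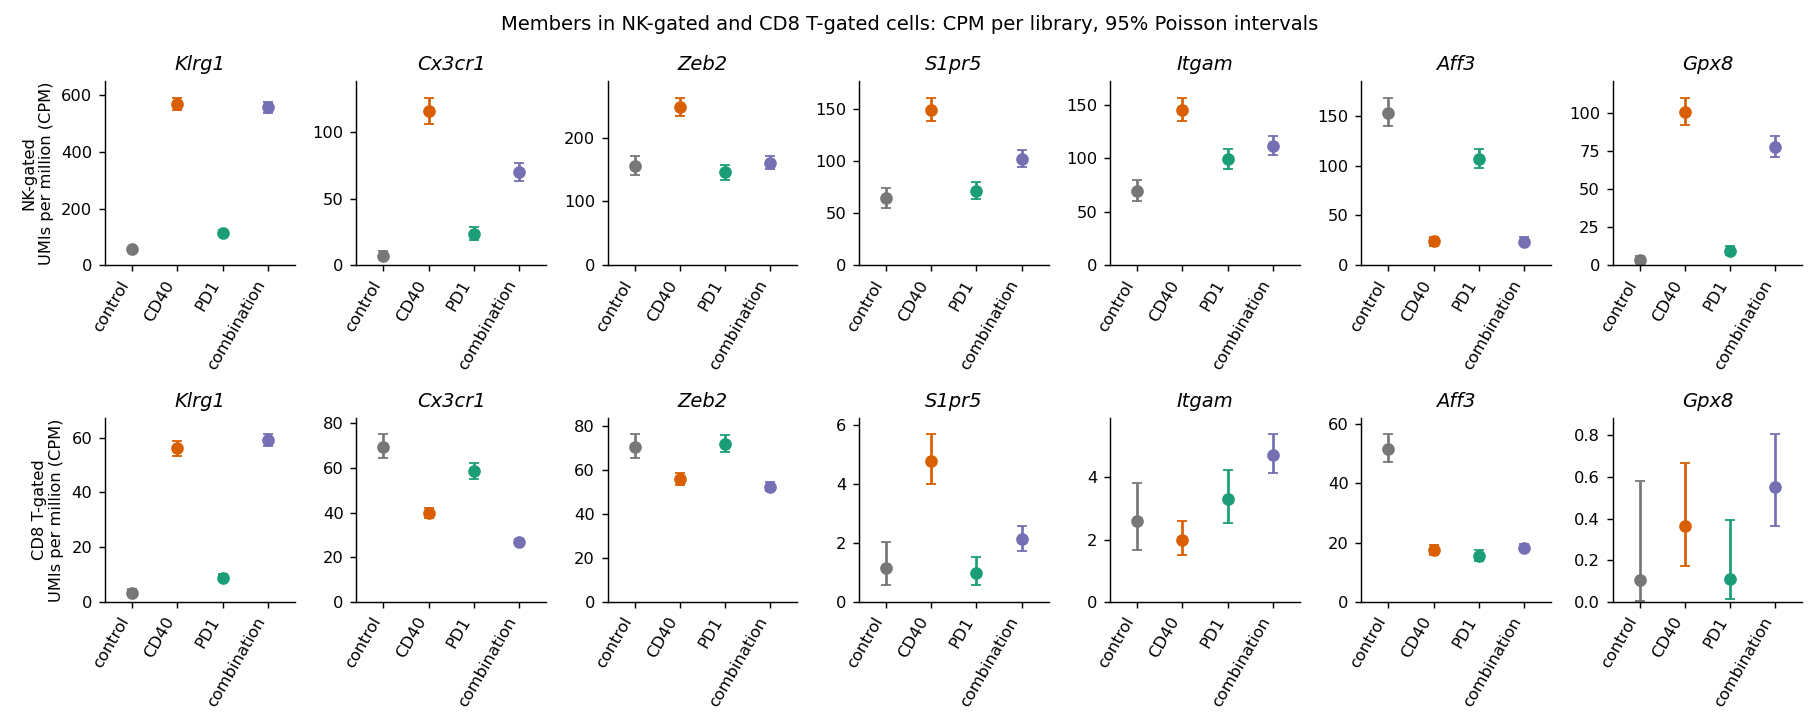
Level of each member (CPM, linear axis from 0, each panel with its own scale) in NK-gated cells (top) and CD8 T-gated cells (bottom) of the 4 libraries. Points are the summed level of 1 library and bars are 95% Poisson intervals for counting error. In NK-gated cells Klrg1 and Gpx8 are high and Aff3 is low in both libraries with the CD40 antibody, and in CD8 T-gated cells Klrg1 is high while Cx3cr1 and Zeb2 are lower in those libraries.

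Promoter windows of 250 bases before the start came from RefSeq on GRCm38.p6 and were found for 6 of the 7 members, 9 windows in all. Cx3cr1 and Gpx8 are shown because they had the largest ratios of the members in NK-gated cells for CD40 over control, and S1pr5 as a member with no match. They lie at chr9:120068297-120068546 (Cx3cr1), chr13:113046389-113046638 (Gpx8) and chr9:21248444-21248693 (S1pr5), all on the minus strand, and are written 5′ to 3′ along it with motif matches in capitals.
Cx3cr1: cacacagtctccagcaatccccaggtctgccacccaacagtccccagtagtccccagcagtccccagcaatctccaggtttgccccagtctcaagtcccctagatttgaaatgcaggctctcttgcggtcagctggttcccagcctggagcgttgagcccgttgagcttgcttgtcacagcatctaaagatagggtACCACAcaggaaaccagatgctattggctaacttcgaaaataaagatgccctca
Gpx8: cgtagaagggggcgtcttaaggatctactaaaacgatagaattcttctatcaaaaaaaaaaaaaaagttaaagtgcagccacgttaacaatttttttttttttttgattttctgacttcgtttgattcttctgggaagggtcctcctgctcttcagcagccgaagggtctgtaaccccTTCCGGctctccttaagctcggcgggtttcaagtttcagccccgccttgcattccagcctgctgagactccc
S1pr5: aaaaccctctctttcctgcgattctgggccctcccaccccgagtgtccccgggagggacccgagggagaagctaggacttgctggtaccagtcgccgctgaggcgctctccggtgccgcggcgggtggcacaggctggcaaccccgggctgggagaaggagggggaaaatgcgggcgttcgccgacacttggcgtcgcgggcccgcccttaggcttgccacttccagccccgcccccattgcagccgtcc
The motifs searched on both strands were the T-box half-site GTGTGA, the ZEB E-box CACCTG, the RUNX site TGTGGT and the ETS site CCGGAA. The capitals mark the 1 RUNX match, in Cx3cr1, and the 1 ETS match, in Gpx8, each as the reverse complement. The T-box half-site and the E-box matched 0 of the 9 windows. Of 32851 promoter windows of this length, 12.3% held the T-box half-site, 17.2% the E-box, 14% the RUNX and 12% the ETS site.

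For CD40 over control, 5 members were past 2-fold higher in NK-gated cells, where 6.14% of the 11369 genes compared were, and 1 was lower, where 8.6% were. Nothing is read from this count, since the members were chosen with it in view. The member nearest to 2-fold from inside was Zeb2, at 0.67, and from outside Itgam, at 1.07. Gpx8 ranked 2, Cx3cr1 5 and Klrg1 20 from the highest ratio, and Aff3 65 from the lowest. The median log2 ratio was 1.22 over the 7 members and -0.08 over all genes. For combination over PD1, 3 members were past 2-fold higher (Klrg1, Cx3cr1 and Gpx8), against 5.66% of all genes, and Aff3 was lower, against 5.18%. Their median was 0.52 and that of all genes -0.07.

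The PD1 antibody alone went with smaller differences in NK-gated cells. For PD1 over control, 3 members were past 2-fold higher, against 2.01% of all genes, and 0 lower, against 3.81%. They were Cx3cr1 at 1.72 (1.03 to 2.48), Gpx8 at 1.42 (0.39 to 2.59) and Klrg1 at 1.02 (0.76 to 1.28). Klrg1 was at 0.44 when the gate asked for a UMI of either Ncr1 or Klrb1c. Itgam was at 0.51 (0.27 to 0.76) and Aff3 at -0.52 (-0.71 to -0.33). Zeb2 at -0.10 (-0.28 to 0.08) and S1pr5 at 0.15 (-0.12 to 0.42) had intervals that include 0.

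For combination over CD40, 0 members were past 2-fold in either direction, where 2.8% of all genes were higher and 1.89% lower. Klrg1 at -0.03 (-0.11 to 0.04) and Aff3 at -0.01 (-0.37 to 0.36) had intervals that include 0. The other 5 members were lower in the combination, from Gpx8 at -0.37 (-0.56 to -0.19) to Cx3cr1 at -0.73 (-0.91 to -0.54). These comparisons share libraries with those for the CD40 antibody.

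**Figure D2:**
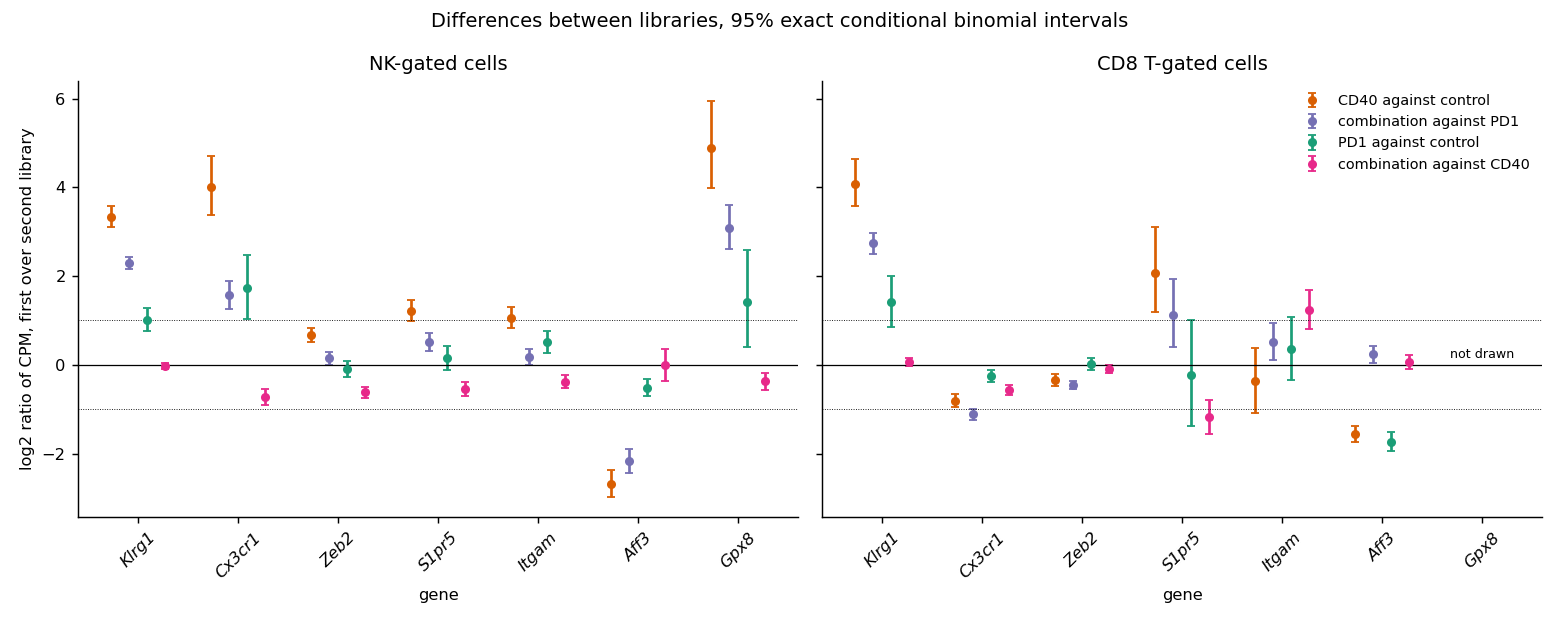
Log2 ratio of CPM between 2 libraries for each member, in NK-gated cells (left) and CD8 T-gated cells (right), with 95% exact conditional binomial intervals for counting error. Dotted lines mark 2-fold. In NK-gated cells the ratios of Klrg1, Cx3cr1 and Gpx8 lie above and those of Aff3 below these lines in both comparisons for the CD40 antibody, and Gpx8 is not drawn for CD8 T-gated cells, where 2 libraries had 1 and 2 UMIs.

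Depth and cell division moved with these differences. The median NK-gated cell had 5780, 11228, 6259.5 and 11068 UMIs. Dividing cells, with at least 2 of 7 division genes detected, made up 3.42%, 27.6%, 4.52% and 24.5%. Among cells that were not dividing, the log2 ratio of CD40 over control was 3.59 for Klrg1, 4.07 for Cx3cr1, 4.74 for Gpx8, 1.20 for S1pr5, 0.62 for Zeb2 and -2.39 for Aff3. Each was near its value over all NK-gated cells, though that of Klrg1 lay just above its interval there (3.11 to 3.58). Dividing cells had ratios of 2.13 (1.65 to 2.66) for Klrg1, 1.77 (1.12 to 2.49) for Zeb2 and 2.95 (1.71 to 4.58) for S1pr5. Their ratio was 2.15 for Itgam, -2.54 for Aff3, and at least 3.37 for Cx3cr1 and 3.24 for Gpx8. Only 15 control cells were dividing, with 5 UMIs each of S1pr5 and Itgam. Whether the ratios differed between dividing and other cells was not tested. Itgam was lower in dividing cells. With the CD40 antibody it was at 77.9 CPM (66.0 to 91.3) in dividing and 192 CPM (176 to 208) in other cells, and in the combination at 58.0 CPM (48.4 to 68.9) and 143 CPM (131 to 155). Without dividing cells its log2 ratios were 1.35 for CD40 over control and 0.43 for combination over PD1.

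Zeb2, Itgam and Cx3cr1 are also genes of phagocytes, whose free RNA can enter other droplets. Lyz2, a lysozyme gene of phagocytes, was at 44.5 to 103 CPM in NK-gated cells, 0.411% to 1.06% of its level in phagocytes of the same library. The same percentage of the phagocyte level is 2.83 to 7.97 CPM of Zeb2, 0.936 to 2.69 of Itgam and 0.287 to 0.477 of Cx3cr1. The lowest levels measured in NK-gated cells were 145, 69.5 and 7.16 CPM. Of 10 phagocyte genes checked, 1 of the 8 with enough UMIs was past 2-fold higher and 3 lower for CD40 over control. The higher gene was S100a9, and the lower genes were Apoe, Csf1r and Fcgr1. Of all genes, 6.14% were higher and 8.6% lower. For combination over PD1, 2 of 9 were higher (S100a8 and S100a9) and 2 lower (Apoe and Fcgr1), beside 5.66% and 5.18% of all genes. Adgre1, a defining phagocyte gene, was at 0, 3, 5 and 3 UMIs. The gate itself limits Adgre1 and Csf1r, the latter among the 3 lower genes, so their counts are no measure of free RNA. Without any cell that had a UMI of Lyz2, C1qa, C1qb or Apoe, the log2 ratio of CD40 over control was 3.79 for Klrg1, 4.28 for Cx3cr1, 1.01 for Itgam, 0.80 for Zeb2 and -3.10 for Aff3. S100a8 and S100a9 are neutrophil genes, and neutrophils had 267 to 520 CPM of Itgam and 415 to 731 CPM of Zeb2. The neutrophil gate held 126, 210, 102 and 506 cells. The Lyz2 percentage was applied to phagocyte levels alone, and the part of neutrophil RNA in the Itgam and Zeb2 ratios was not tested.

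To compare cells at 1 depth, each was thinned to 3000 UMIs, which left out 19, 5, 27 and 5 NK-gated cells. Klrg1 was then detected in 9.79% (7.11 to 13.04%), 68.0% (63.0 to 72.7%), 20.3% (17.1 to 23.9%) and 65.5% (61.0 to 69.8%) of NK-gated cells. Without thinning the shares were 17.1%, 82.2%, 31.4% and 83.0%. In phagocytes, which should lack the gene, the thinned share was 0.0306% to 0.221%, at median depths of 13668 to 19591 UMIs before thinning. The intervals of both libraries with the CD40 antibody lay above those without, and a cell with no UMI may still express the gene.

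Gpx8 was detected in 1.43% (0.527 to 3.09%), 18.3% (14.5 to 22.6%), 2.63% (1.48 to 4.30%) and 15.9% (12.7 to 19.5%) of thinned NK-gated cells (2.28%, 42.4%, 5.02% and 35.0% unthinned), and in at most 0.0817% of phagocytes. Aff3 was detected in 33.4% (28.9 to 38.2%), 6.45% (4.18 to 9.45%), 21.9% (18.6 to 25.5%) and 6.57% (4.51 to 9.19%) (49.8%, 15.6%, 38.0% and 16.6% unthinned), and in at most 0.689% of phagocytes. At equal depth, a UMI of Gpx8 was found in more cells with the CD40 antibody and a UMI of Aff3 in fewer. The thinned shares were 2.15% (0.987 to 4.04%), 21.2% (17.2 to 25.7%), 5.25% (3.57 to 7.42%) and 13.3% (10.4 to 16.8%) for Cx3cr1, with CD40 and combination above both others. They were 18.1% (14.6 to 22.2%), 30.6% (26.0 to 35.6%), 14.4% (11.6 to 17.5%) and 21.8% (18.2 to 25.8%) for S1pr5, and 21.5% (17.6 to 25.7%), 34.4% (29.6 to 39.5%), 24.2% (20.7 to 27.9%) and 29.4% (25.4 to 33.8%) for Itgam. Zeb2 had 31.0% (26.6 to 35.7%), 43.3% (38.2 to 48.5%), 30.5% (26.7 to 34.4%) and 35.4% (31.1 to 39.9%). For S1pr5, Itgam and Zeb2 the CD40 interval lay above that of the control, and the combination interval overlapped it. Phagocytes express these genes and give no background for them.

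Detection of several maturation genes in the same cell was counted next. Such counts rise with how often each gene is detected alone, and no value for independent genes was computed. Of Klrg1, Cx3cr1, Zeb2, S1pr5 and Itgam, 3 or more were detected in 6.68%, 36.6%, 10.5% and 23.5% of thinned NK-gated cells. None was detected in 48.2%, 18.3%, 44.5% and 19.7%, and all 5 in 3, 16, 5 and 9 cells. The CD40 library was highest in the first and lowest in the second measure.

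NK-gated cells with a Klrg1 UMI more often had a UMI of the other maturation genes in every library. S1pr5 was detected in 43.9% of control cells with Klrg1 and 15.3% of those without, and in 37.2% and 16.8% with the CD40 antibody. The shares were 30.2% and 10.3% in PD1 and 25.9% and 14.1% in combination cells. Zeb2 ran from 39.5% to 53.0% in cells with Klrg1 and from 22.7% to 29.1% in cells without. Itgam ran from 29.3% to 40.5% with and from 19.6% to 23.5% without. The intervals with and without Klrg1 overlapped for Zeb2 and Itgam in the control and for Zeb2 in the combination. Gpx8 sided with Klrg1, at 22.9% with and 8.40% without in CD40 and 21.4% with and 5.52% without in combination cells. Aff3 took the opposite side, at 17.1% with and 35.2% without in control, 2.77% with and 14.3% without in CD40, 11.2% with and 24.6% without in PD1 and 2.59% with and 14.1% without in combination cells. Among cells with Gpx8, S1pr5 was detected in 61.8% in CD40, against 23.7% of cells without Gpx8, and in 44% against 17.6% in combination cells. Aff3 was detected in 0 of the 68 CD40 and 0 of the 75 combination cells with Gpx8, and a limit of 3 counts is 4.41% and 4%. The exact upper limits are 5.28% and 4.80%, for cells with an Aff3 UMI at this depth and not for cells that express it. Among cells without Gpx8, Aff3 was itself rare, at 7.89% (5.12 to 11.5%) in CD40 and 7.81% (5.37 to 10.9%) in combination cells. The Aff3 intervals with and without Gpx8 thus overlapped in CD40 and lay apart in combination cells, and the difference was not tested.

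**Figure D3:**
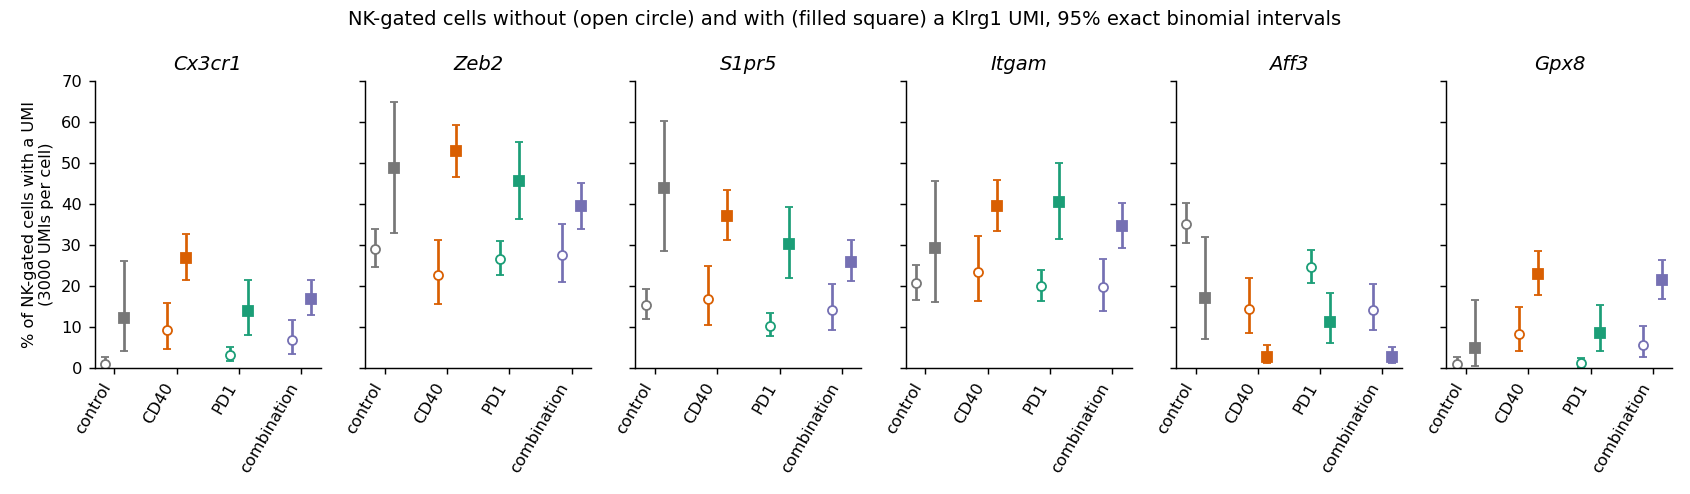
Percentage of NK-gated cells with a UMI of each other member, in cells without (open circles) and with (filled squares) a Klrg1 UMI, by library, at 3000 UMIs per cell, with 95% exact binomial intervals. Cx3cr1, Zeb2, S1pr5, Itgam and Gpx8 are higher and Aff3 is lower in cells with Klrg1 in all 4 libraries, though some intervals overlap.

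Cd27, the receptor lost in the last steps of maturation, separated NK-gated cells in the same way. Cells with a Cd27 UMI made up 38.6%, 23.3%, 37.0% and 24.9% of the gate, unthinned. In each library they were lower in Klrg1, Cx3cr1, Zeb2, S1pr5, Itgam and Gpx8 and higher in Aff3 than cells without, as summed CPM. With the CD40 antibody Gpx8 was at 37.5 CPM (27.4 to 50.2) in cells with Cd27 and 121 CPM (110.1 to 133) in cells without, and Zeb2 at 129 CPM (109.7 to 151) and 287 CPM (270.0 to 305). The Aff3 intervals lay apart in the combination, at 48.7 CPM (38.6 to 60.7) and 14.6 CPM (11.3 to 18.7), and overlapped with the CD40 antibody alone. CD40 cells with Cd27 still had 409.6 CPM (374 to 447) of Klrg1, above the 73.4 CPM (61.0 to 87.7) of control cells without Cd27.

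Itga1 encodes CD49a, an integrin of tissue-resident NK cells and of type 1 innate lymphoid cells, which the NK gate does not separate. Cells with an Itga1 UMI made up 13.7%, 41.1%, 10.7% and 43.2% of the gate, shares that are not thinned and so move with depth. In control cells S1pr5 was at 15.5 CPM (6.69 to 30.5) with Itga1 and 74.8 CPM (64.3 to 86.6) without. In CD40 cells it was at 148 CPM (132 to 165) and 151 CPM (137 to 167), with overlapping intervals. The PD1 library was like the control in this, at 31.6 CPM (18.4 to 50.6) and 77.0 CPM (68.4 to 86.5), and the combination like CD40, at 105 CPM (93.3 to 117) and 99.6 CPM (88.9 to 111). Itgam was at 46.5 CPM (29.8 to 69.2) with and 74.4 CPM (64.0 to 86.1) without Itga1 in control cells, with overlapping intervals, and at 118 CPM (104 to 133) and 169 CPM (154 to 185) in CD40 cells, where it was lower with Itga1. Klrg1 was at 60.1 CPM (40.8 to 85.3) and 55.4 CPM (46.4 to 65.6) in control and 569 CPM (538 to 602) and 569.6 CPM (541 to 599) in CD40 cells, with overlapping intervals in both. Zeb2 was at 81.4 CPM (58.6 to 110.0) and 172 CPM (155 to 189) in control and 262 CPM (241 to 284) and 236 CPM (218 to 255) in CD40 cells. Whether the split differed between libraries was not tested.

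Other genes of NK maturation were read from lists chosen with earlier results of these data known. Of 12 mature NK effector and surface genes, 4 were past 2-fold higher and 0 lower for CD40 over control, where the list's median log2 ratio was 0.67. Of all genes, 6.14% were higher and 8.6% lower, which is the background for each list here. The 4 were the mast cell protease gene Cma1 (1.65), the granzyme gene Gzma (1.60), Ly6c2 (1.58) and the perforin gene Prf1 (1.54). Of 12 genes of immature NK cells, 0 were higher and 7 lower, with a median of -1.01, among them the transcription factor gene Tcf7 (-2.23), Cd27 (-1.67), Emb (-1.40) and the chemokine gene Xcl1 (-1.19). Of 15 regulators, 1 was higher, Klf2 (1.37), and 4 were lower, Bach2 (-1.73), Zeb1 (-1.34), Tox (-1.31) and Eomes (-1.10). Tbx21, which encodes T-bet, was at 233 CPM in control and 426 CPM in CD40 cells, a log2 ratio of 0.87 (0.75 to 0.998).

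Genes of tissue-resident cells split evenly. Of 12, 4 were past 2-fold higher for CD40 over control, Itga1 (1.01), Itgae (1.87), Cxcr6 (1.16) and Zfp683 (1.46), and 4 lower, Pmepa1 (-2.32), Inpp4b (-1.38), Tmem176a (-1.24) and Cd200r1 (-1.15). For combination over PD1, 1 of 12 mature effector genes was higher and 0 lower, beside 5.66% and 5.18% of all genes, and 1 of 12 immature genes was higher and 3 lower. Among the regulators 0 of 15 were higher and 2 lower, and among tissue-resident genes 3 of 12 were higher and 1 lower. The medians of these 4 lists were 0.14, -0.52, -0.12 and 0.53, beside -0.07 for all genes.

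Of 13 relatives of the members with enough UMIs in NK-gated cells, 0 were past 2-fold higher and 1 lower for CD40 over control, beside 6.14% and 8.6% of all genes, and 0 higher and 0 lower for combination over PD1, beside 5.66% and 5.18%. The lower one was Zeb1, the paralog of Zeb2, at 115, 45.6, 90.0 and 53.1 CPM. Its log2 ratio was -1.34 (-1.59 to -1.09) for CD40 over control, on the other side of 0 from Zeb2. Among sphingosine-1-phosphate receptors, S1pr1 was at 0.14 (-0.31 to 0.61) and S1pr4 at 0.71 (0.48 to 0.94), below the ratio of S1pr5. Itgb2, the gene of the beta chain that pairs with CD11b, was at 0.94 (0.85 to 1.03), and Itgax, which encodes the alpha chain CD11c, at 0.50 (0.33 to 0.68). The glutathione peroxidase genes Gpx1 and Gpx4 were at 0.00 (-0.16 to 0.16) and -0.29 (-0.40 to -0.18), and Aff1 and Aff4 at -0.39 (-0.73 to -0.06) and -0.37 (-0.73 to -0.02).

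Gpx8 lies inside Cdc20b, which runs on the plus strand of chromosome 13 from 113035111 to 113091195. Whether the counting used read strand is not given in the sources used here, and without it reads of the overlapping genes cannot be told apart. Cdc20b had 32, 306, 118 and 214 UMIs in NK-gated cells. Its log2 ratio was 2.55 (2.02 to 3.12) for CD40 over control and 0.35 (0.02 to 0.69) for combination over PD1, both below those of Gpx8. The granzyme genes Gzma and Gzmk start within 200 kb of Gpx8. Gzma was at 1.60 (1.57 to 1.62) and 0.72 (0.71 to 0.74), and Gzmk at 3.16 (2.61 to 3.75) and 3.22 (2.89 to 3.57). Esm1, whose gene lies within Gzmk, had 0, 29, 0 and 42 UMIs, with the same limit for these overlapping genes. On the other side of Gpx8, Mtrex was at 0.25 (-0.06 to 0.58) and -0.14 (-0.42 to 0.14), and Dhx29 at 0.67 (0.12 to 1.25) and -0.08 (-0.55 to 0.40). Ccno, on that same side and nearer to Gpx8, had 0, 12, 2 and 19 UMIs. Its log2 ratios were at least 1.29 and 2.16.

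**Figure D4:**
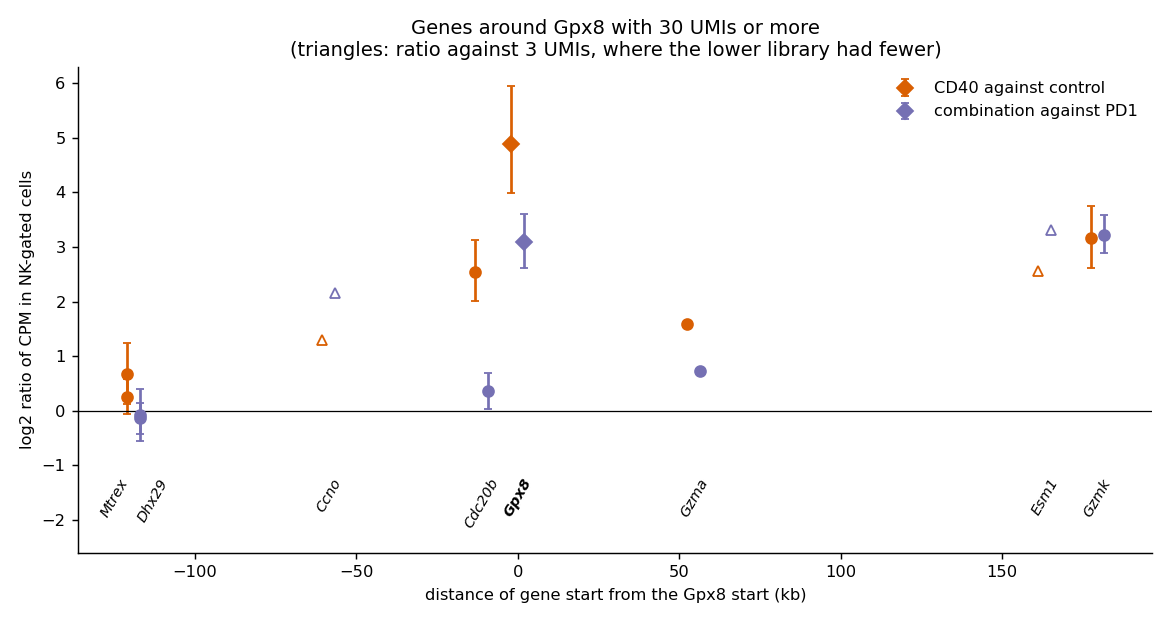
Log2 ratio in NK-gated cells of Gpx8 (diamonds) and of its neighbours with at least 30 UMIs over the 4 libraries (circles), by the distance between gene starts in kb, with 95% exact conditional binomial intervals. Triangles are genes whose lower library had fewer than 3 UMIs, with that count set to 3. Gzmk, Esm1, Gzma, Cdc20b and Ccno lie above 0 with Gpx8 in both comparisons, while Mtrex and Dhx29 lie near 0 for combination over PD1.

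In CD8 T-gated cells the members went different ways. Klrg1 was at 3.32 CPM (2.27 to 4.69), 56.0 CPM (53.3 to 58.9), 8.84 CPM (7.54 to 10.3) and 58.9 CPM (56.8 to 61.1). Both libraries with the CD40 antibody were again high and nearly level. The log2 ratio was 4.08 (3.57 to 4.63) for CD40 over control, ranking 6 from the highest of 13782 genes, and 2.74 (2.51 to 2.97) for combination over PD1. At 3000 UMIs per cell the first was 3.03. The thinned share of cells with Klrg1 was 1.82% (0.910 to 3.22%), 11.5% (10.0 to 13.1%), 2.90% (1.93 to 4.16%) and 12.6% (11.4 to 13.8%), and the unthinned share 3.81%, 26.6%, 7.87% and 32.0%.

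Cx3cr1 went the other way from its course in NK-gated cells. It was at 69.6 CPM (64.4 to 75.0), 39.8 CPM (37.4 to 42.2), 58.5 CPM (55.1 to 62.1) and 26.9 CPM (25.5 to 28.4), and all 4 intervals lay apart. Its log2 ratio was -0.81 (-0.95 to -0.67) for CD40 over control and -1.12 (-1.24 to -1.002) for combination over PD1, and the second was -0.91 with equal weight per cell and -0.93 when thinned. Zeb2 was also lower, at 70.8 CPM (65.6 to 76.3), 55.9 CPM (53.2 to 58.8), 72.2 CPM (68.3 to 76.1) and 52.5 CPM (50.5 to 54.6). Its log2 ratios were -0.34 (-0.47 to -0.21) and -0.46 (-0.55 to -0.36), neither past 2-fold. The difference between the gates in Cx3cr1 was not tested.

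S1pr5, Itgam and Gpx8 were low in CD8 T-gated cells. S1pr5 had 11, 132, 18 and 104 UMIs, Itgam 25, 55, 61 and 231, and Gpx8 1, 10, 2 and 27, the last 0.104 to 0.552 CPM. The S1pr5 log2 ratio was 2.07 (1.18 to 3.11) for CD40 over control and 1.12 (0.39 to 1.93) for combination over PD1. The second was 0.13 without dividing cells, -0.19 with equal weight per cell and -0.27 when thinned, so it had no stable direction. Only 47 CD40 and 56 combination cells had an S1pr5 UMI. It was higher in cells with Klrg1, at 14.4 CPM (11.97 to 17.2) with and 0.475 CPM (0.217 to 0.901) without a Klrg1 UMI in CD40 cells, and at 5.15 CPM (4.16 to 6.30) and 0.327 CPM (0.157 to 0.601) in combination cells.

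Aff3 in CD8 T-gated cells was at 51.7 CPM (47.3 to 56.5), 17.5 CPM (16.0 to 19.1), 15.6 CPM (13.8 to 17.5) and 18.3 CPM (17.1 to 19.5). The control alone was high, so the PD1 library here stood with the CD40 libraries, unlike in NK-gated cells. The log2 ratio was -1.56 (-1.75 to -1.38) for CD40 over control, -1.73 (-1.95 to -1.52) for PD1 over control and 0.23 (0.04 to 0.43) for combination over PD1. The last was -0.32 without dividing cells. Aff3 was found mainly in cells with a UMI of Tcf7, the transcription factor gene of memory and stem-like T cells, which held 448 of its 498 control UMIs and 416 of 481 in CD40 cells. In control cells it was at 217 CPM (197 to 238) with and 6.61 CPM (4.91 to 8.72) without Tcf7. The levels with Tcf7 were 128 CPM (116 to 141), 116 CPM (102 to 131) and 103 CPM (95.8 to 111) in CD40, PD1 and combination cells. Cells with Tcf7 made up, unthinned, 34.6%, 15.3%, 21.3% and 19.0% of the gate, so both their share and their Aff3 level were highest in the control. In cells with Havcr2, the gene of the exhaustion receptor TIM-3, Aff3 was at 1.43 to 5.22 CPM, and in cells without at 49.6 to 141 CPM.

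For CD40 over control, 2 members were past 2-fold higher in CD8 T-gated cells (Klrg1 and S1pr5), against 3% of all genes, and 1 lower (Aff3), against 6.37%. For combination over PD1, 3 were higher (Klrg1, S1pr5 and Gpx8, the last at 27 against 2 UMIs), against 4.43%, and 1 lower (Cx3cr1), against 4.58%. The count of 3 was 1 without dividing cells and 1 when thinned, where Gpx8 was at -0.82, and the count of 1 lower was 0 when thinned. For PD1 over control, 1 of the 6 members with enough UMIs was higher, Klrg1 at 1.41 (0.86 to 2.01), against 2.45%, and 1 was lower, Aff3, against 4.78%. For combination over CD40, 1 was higher, Itgam at 1.24 (0.81 to 1.69), against 2.97%, and 1 lower, S1pr5 at -1.17 (-1.56 to -0.79), against 2.55%. Itgam there was 0.61 when thinned. Its level in CD8 T-gated cells was 2.00 to 4.73 CPM, and the Lyz2 percentage of its phagocyte level was 0.719 to 0.852 CPM in these cells. The part of phagocyte RNA in its ratios was not tested, and with no phagocyte UMI its CD40 over control ratio was 0.76 in place of -0.38. The members' median log2 ratio was -0.34 for CD40 over control and 0.51 for combination over PD1, and that of all genes -0.02 and 0.03. Dividing cells made up 35.2% to 46.0% of the CD8 T gate, and median depth was 11632 to 15416 UMIs.

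Few CD8 T-gated cells had UMIs of several maturation genes. At 3000 UMIs per cell, 3 or more of the 5 were detected in 1.16%, 1.57%, 0.725% and 0.947% of them. S1pr5 by itself was detected in only 0.495% to 1.52% and Itgam in 0.932% to 1.49%, which limits this count. Klrg1 was higher in cells with Gzmk, the granzyme gene of early effector memory cells. In CD40 cells it was at 74.5 CPM (70.5 to 78.6) with and 21.1 CPM (18.3 to 24.3) without a Gzmk UMI, and in combination cells at 71.3 CPM (68.6 to 74.1) and 23.7 CPM (21.1 to 26.5). Cells with Gzmk made up, unthinned, 20.8%, 64.9%, 43.7% and 74.1% of the gate. Of 12 effector genes, 2 were past 2-fold higher and 0 lower for CD40 over control, beside 3% and 6.37% of all genes, Gzma (3.87) and Gzmk (2.62). Of 11 memory-precursor genes, 0 were higher and 5 lower, among them Ccr7 (-2.75), Bach2 (-2.02) and Tcf7 (-1.39). For combination over PD1, where 4.43% of all genes were higher and 4.58% lower, 4 effector genes were higher and 0 lower, and 2 memory-precursor genes higher and 0 lower. Of 13 relatives of the members with enough UMIs, 2 were past 2-fold higher for CD40 over control, Itgax and Itgad, beside 3% of all genes. For combination over PD1, 4 were, Itgax, Itgad, S1pr1 and S1pr4, beside 4.43%. In both comparisons 0 were lower, beside 6.37% and 4.58%. Itgax, a relative of Itgam, was at 2.25 (1.72 to 2.83) and 2.76 (2.38 to 3.16), while Itgam was at -0.38 (-1.08 to 0.37) and 0.51 (0.10 to 0.95).

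Each member had its own order of levels across gates, read over libraries with at least 30 cells in a gate. Klrg1 was at 56.2 to 569.5 CPM in NK-gated and 300.4 to 427 CPM in regulatory T-gated cells, ranges that overlapped, then at 63.1 to 98.9 CPM in conventional CD4 T-gated cells. Gpx8 was seen mainly in NK-gated cells, at 3.41 to 100.3 CPM, and was at most 3.01 CPM in every other leukocyte gate. The few melanoma cells that passed the sort, 2 to 7 per library, had 52.2 to 77.4 CPM of Gpx8. The pigment gene Pmel, a defining melanoma gene, was at 5, 6, 2 and 10 UMIs in NK-gated cells. Of 4 such genes 1 had enough UMIs to compare for CD40 over control, with 0 past 2-fold. Of all genes, 6.14% were higher and 8.6% lower. For combination over PD1, 2 had enough, beside 5.66% of all genes higher and 5.18% lower. Pmel was past 2-fold higher and Dct past 2-fold lower, at 7 UMIs in PD1 and 3 in combination cells. The part of melanoma cell RNA in the Gpx8 ratios was not tested. S1pr5 was highest in NK-gated cells, at 64.4 to 149.8 CPM, then in conventional CD4 T-gated cells at 2.82 to 31.4 CPM and phagocytes at 4.91 to 11.3 CPM, which overlapped.

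Cx3cr1, Zeb2 and Itgam were also high in myeloid cells. Cx3cr1 was at 44.9 to 69.9 CPM in phagocytes, 26.9 to 69.6 CPM in CD8 T-gated and 7.16 to 115 CPM in NK-gated cells, and these ranges overlapped. Zeb2 was highest in phagocytes at 688 to 794 CPM and neutrophils at 415 to 731 CPM, which overlapped, and NK-gated cells at 145 to 248 CPM overlapped B cells at 98.0 to 276 CPM. Itgam was highest in neutrophils at 267 to 520.0 CPM and phagocytes at 228 to 291 CPM, which overlapped, above NK-gated cells at 69.5 to 145 CPM. Aff3 was highest in B cells at 277 to 547 CPM and plasmacytoid dendritic cells at 246 to 292 CPM, whose ranges also overlapped, then in conventional CD4 T-gated cells at 50.5 to 133 CPM and NK-gated cells at 23.7 to 153 CPM.

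**Figure D5:**
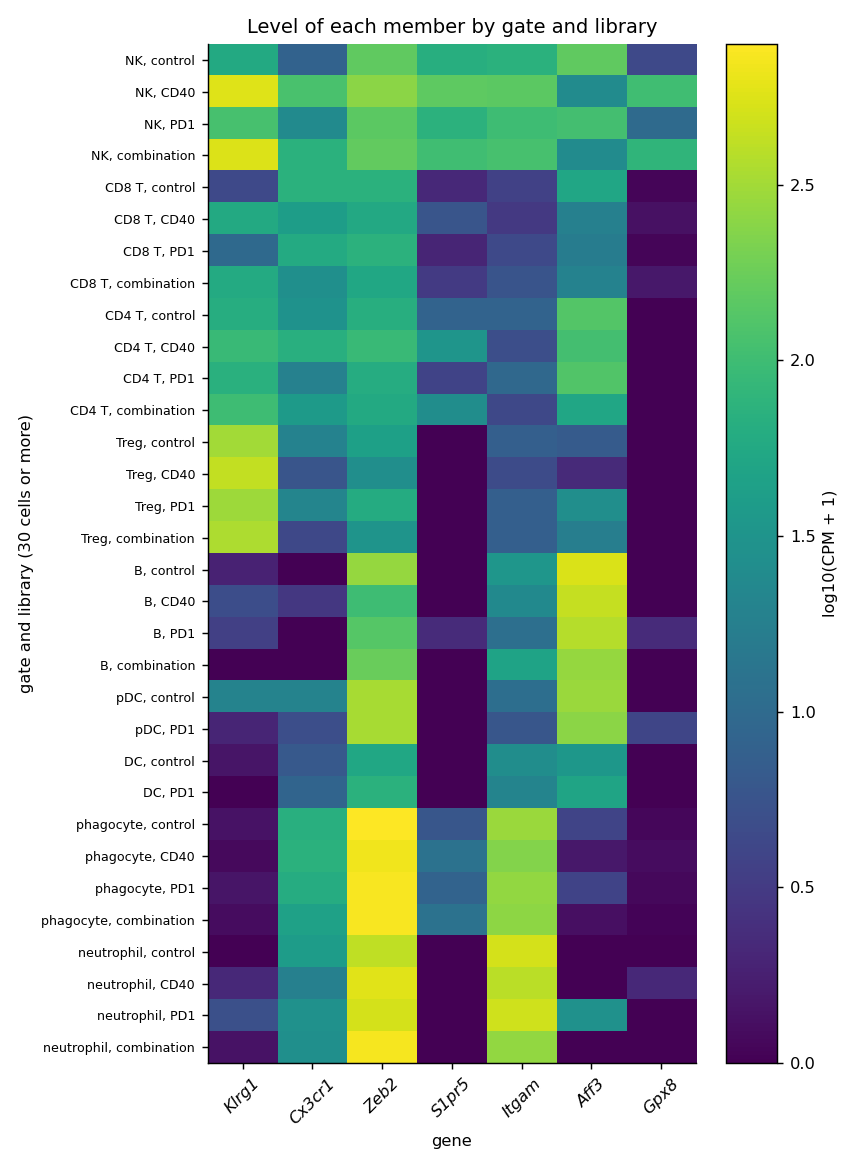
Level of each member, as log10(CPM + 1), in every gate and library with at least 30 cells. CPM is not scaled to gene length, so the colours compare gates and libraries within a column, not genes. Gpx8 is bright in NK-gated cells of the CD40 and combination libraries, Klrg1 in NK and regulatory T (Treg) rows, and Aff3 in B and plasmacytoid dendritic (pDC) rows.

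Phagocytes with Treml4, a receptor gene of patrolling monocytes, were higher in S1pr5 and Cx3cr1. S1pr5 was at 29.3 to 33.8 CPM in cells with and 1.05 to 1.84 CPM in cells without a Treml4 UMI, over the 4 libraries. Cx3cr1 was at 92.3 to 165 and 21.7 to 51.8 CPM in the same cells. Those with Treml4 made up, unthinned, 17.3%, 40.0%, 24.5% and 40.3% of phagocytes.

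Partners of the receptors were looked for in the same libraries. Cdh1, the E-cadherin gene and a ligand of KLRG1, was at 61.2 to 94.0 CPM in plasmacytoid dendritic cells, a gate of 9 to 79 cells. In phagocytes it was at 6.82 CPM (6.21 to 7.47), 0.904 CPM (0.722 to 1.12), 1.94 CPM (1.66 to 2.27) and 0.539 CPM (0.383 to 0.737). The control was highest and both libraries with the CD40 antibody lowest, the reverse of Klrg1 in NK-gated cells. Cx3cl1, the fractalkine gene, was at 11.7 CPM (9.16 to 14.6) in dendritic cells of the control and 8.50 CPM (5.65 to 12.3) of the PD1 library, while CD40 and combination had only 11 and 12 such cells. Of 8 genes of ligands and of lipid makers for these receptors, 3 had enough UMIs in NK-gated cells for CD40 over control. Among these, 0 were past 2-fold in either direction, beside 6.14% of all genes higher and 8.6% lower. For combination over PD1, 5 had enough and 1 was higher, Cdh1 itself, at 9 against 2 UMIs, beside 5.66% of all genes.

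The genes whose levels were most like each member's were sought over 32 sums of a gate in a library, among 6325 genes, by Pearson's r of log2(CPM + 10). The sums share libraries and cell types, so r is a description. Pvrig (0.917), an inhibitory receptor gene, was most like Klrg1, Xdh (0.786) most like Cx3cr1, and Dtnbp1 (0.933) most like Zeb2. Nrarp (0.938) was most like S1pr5, followed by Prag1 (0.916) and Klra1 (0.913), a Ly49 receptor gene of NK cells. Lrmda (0.975) and the Fc receptor gene Fcgr3 (0.970) were most like Itgam. Bach2 (0.903), a repressor of effector genes in lymphocytes, was most like Aff3, and the overlapping gene Cdc20b (0.916) most like Gpx8.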

How the data were processed

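Live CD45+ leukocytes of B16-F10 tumours were profiled by 5′ droplet sequencing in 4 libraries. The submitters' processing notes name Cell Ranger 7.0.0 and the build GRCm38. The matrices deposited by the authors hold raw UMI counts for each gene and cell barcode. The sources used here do not state the annotation release, or whether intronic reads or read strand were counted. If counted, intronic reads could add counts mainly to long genes such as Aff3, Zeb2 and Cx3cr1.

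Cells with at least 300 genes, at most 10% mitochondrial UMIs and a Scrublet doublet score under 0.25 (scanpy 1.11.5) were kept, 7734, 7762, 9685 and 9465 for control, CD40, PD1 and combination, after removal of 113 to 255 predicted doublets per library. Gates used marker UMIs, and cells in more than 1 gate were left out. UMIs were summed over each gate of a library. CPM have exact Poisson intervals, log2 ratios exact conditional binomial intervals (genes with at least 10 UMIs over the 2 libraries, a count of 0 to 2 set to 3), and shares exact Clopper-Pearson intervals. With 1 library per group no test was made.

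The 7 members and the 10 gene lists were chosen with earlier results of these data known. From each list, up to 4 genes with the largest log2 ratio in size and at least 30 UMIs in the higher library were named, except 1 that is not reported here. Itga1, Itgae, Cxcr6, Cd200r1, Eomes, Tbx21, the neighbours of Gpx8, the relatives named beside Zeb1 and the genes that split the gates (Cd27, Itga1, Tcf7, Havcr2, Gzmk, Treml4) were chosen after their values were seen. Likeness used genes at 50 CPM or more in at least 1 sum of at least 30 cells, without ribosomal, mitochondrial and unnamed gene models. Coordinates come from GENCODE vM21. Alternatives were stricter and looser gates, no phagocyte UMI, doublets kept, no dividing cells, equal weight per cell, thinning, another total, at most 5% mitochondrial UMIs and genes with at least 50 UMIs. The ratios were tested on simulated Poisson counts drawn from the pooled NK-gated cells. Such counts have no spread between mice or libraries, so they check the computation of the counting intervals only. Software was Python 3.11.15 with scipy 1.17.1, numpy 2.4.6, pandas 2.3.3, anndata 0.12.19 and matplotlib 3.10.9.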

Additional observations from a re-analysis of the deposited data

Results flagged for a closer look

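For 3 members in NK-gated cells, the PD1 antibody went with a higher level without the CD40 antibody and a lower level with it, and both counting intervals lay clear of 0. The log2 ratios for PD1 over control and for combination over CD40 were 1.72 and -0.73 for Cx3cr1, 0.51 and -0.38 for Itgam, and 1.42 and -0.37 for Gpx8. The members were selected mainly on CD40 over control in NK cells, and these comparisons reuse the control and the CD40 library. That choice favours such a pattern, which therefore supports nothing by itself. Aff3 in CD8 T-gated cells was at -1.56 for CD40 over control and 0.23 for combination over PD1, but the second was -0.32 among cells that were not dividing. With 1 library per group, these differences between comparisons were not tested.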

How the results depend on the processing

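No paired analysis was possible because each group was 1 library. Of 144 recounts of the members past 2-fold, 134 were within 1.5 times the reported count. In NK-gated cells, 3 members in place of 5 were higher for CD40 over control with equal weight per cell. In CD8 T-gated cells, combination over PD1 had 1 member higher in place of 3 without dividing cells and 1 when thinned to 3000 UMIs, and 0 lower in place of 1 with equal weight and 0 when thinned. PD1 over control had 2 higher and 2 lower in place of 1 and 1 with no phagocyte UMI. Combination over CD40 had 2 higher in place of 1 with no phagocyte UMI, 0 with doublets kept and 0 when thinned. Of 493 log2 ratios of members, 436 stayed within the reported interval, 54 moved and 3, each past 2-fold as reported, changed direction, all in CD8 T-gated cells for combination over PD1: S1pr5 to -0.19 (equal weight) and -0.27 (thinned) from 1.12, and Gpx8 to -0.82 (thinned) from 1.76, at 2 UMIs in the PD1 library. Ratios inside 2-fold that changed sign were not counted, such as Itgam in CD8 T-gated cells for CD40 over control, from -0.38 to 0.76 with no phagocyte UMI. The cause was not tested.

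With genes of at least 50 UMIs in place of 10, a smaller percentage of all genes was past 2-fold. In NK-gated cells it was 4.31 in place of 8.6 (lower, CD40 over control), 3.72 and 2.11 in place of 5.66 and 5.18 (higher and lower, combination over PD1), 0.408 and 0.783 in place of 2.01 and 3.81 (PD1 over control) and 0.626 and 0.307 in place of 2.8 and 1.89 (combination over CD40). In CD8 T-gated cells it was 2.67 in place of 6.37 (lower, CD40 over control), 2.22 in place of 4.58 (lower, combination over PD1), 1.29 and 1.82 in place of 2.45 and 4.78 (PD1 over control) and 1.27 and 0.698 in place of 2.97 and 2.55 (combination over CD40).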
